A study of Mus musculus with 6 samples.

Results

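Transcripts that mark antigen-presenting cells and B cells were followed in cultures set up from splenic CD8+ T cells, as a check for other cells in those cultures. The 9 genes asked for were Igk-C, H2-Aa, H2-Ab1, H2-Eb1, Cd74, Cd79a, Cd79b, Ms4a1 and Fcmr. Probes were taken where the array annotation gives one of these symbols, old or current. This found 13 of the 45281 probes, for 8 of the 9 genes and of 21946 genes named on the array. No probe here carried the name Cd79a, so no value is given for it. The genes were chosen by earlier results on these arrays: their intensities with epoxomicin against DMSO were known when the list was drawn up. That comparison is therefore described for the 8 genes with no test.

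MHC class II molecules display peptides from engulfed or internalized proteins to CD4+ T cells, and in the mouse they are characteristic of B cells, dendritic cells and macrophages rather than of T cells. The invariant chain Cd74 escorts the newly made alpha and beta chains, and the transactivator CIITA, working with RFX factors on an X box and NF-Y on a Y box, switches their promoters on. B cells further carry immunoglobulin, whose signal passes through the Cd79a and Cd79b chains, and the surface protein CD20 encoded by Ms4a1. Fcmr encodes the Fc receptor for IgM, a receptor of B cells that some T cells also make.

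The RNA came from 6 Illumina bead arrays of spleen cells from C57BL/6 mice aged 6 weeks, isolated with a CD8+ T cell kit, with 2 arrays each for epoxomicin, E9 and DMSO. Cells were pre-treated with 0.5 µM epoxomicin, a proteasome inhibitor, with 1.0 µM E9, a code-named compound given as a proteasome activator, or with the vehicle DMSO, and all were then activated with plate-bound anti-CD3 and anti-CD28 at 5 µg/ml plus IL-2 for 3 days. The design text calls the arrays biological duplicates of CD8+CD44+ cells. The labels do not tie arrays to animals, pools, slides or days, so p-values measure only the spread between these arrays. The T cell markers Cd8b1 (4753 to 7588) and Cd3e (1602 to 2127) were bright on all 6 arrays, while the best Cd8a probe stayed between 36.5 and 48.5. Intensities are the deposited ones, on a linear scale with a background mode of 30.7 and a detection limit of 34.5. They had been quantile-normalized, so a change in total RNA cannot be seen. In bulk RNA, fewer cells of a type and less RNA per cell cannot be told apart.

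Upstream windows of a pair of class II genes are shown because both were read on the arrays and carry the X and Y box letters. H2-Aa was lower with epoxomicin, while H2-Eb1 lay too near the detection limit in every group for a change to be seen. Of the 9 genes, 4 have an entry in the RefSeq promoter table (build GRCm38.p6). Each window holds the 250 bases before the annotated start, 5′ to 3′ on the gene's strand. H2-Aa lies at chr17:34287824-34288073 on the minus strand and H2-Eb1 at chr17:34305617-34305866 on the plus strand. Capitals mark the Y box letters CCAAT on either strand (ATTGG on the other) and an X box form, CTNGCAAC.
H2-Aa: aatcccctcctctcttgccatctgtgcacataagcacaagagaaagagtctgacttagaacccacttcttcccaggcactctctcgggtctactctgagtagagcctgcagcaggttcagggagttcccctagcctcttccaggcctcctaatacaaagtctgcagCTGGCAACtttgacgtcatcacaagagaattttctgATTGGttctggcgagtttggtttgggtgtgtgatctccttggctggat
H2-Eb1: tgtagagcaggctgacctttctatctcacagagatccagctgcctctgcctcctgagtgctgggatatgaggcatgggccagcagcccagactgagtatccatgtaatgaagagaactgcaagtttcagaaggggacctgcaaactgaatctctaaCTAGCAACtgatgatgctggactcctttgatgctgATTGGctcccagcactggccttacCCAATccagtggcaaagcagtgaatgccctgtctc

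The first and last base of CTNGCAAC stand 84 and 77 bases before the start in H2-Aa, and 94 and 87 bases before it in H2-Eb1. The gap from it to the ATTGG that follows is 28 bases in H2-Aa and 27 bases in H2-Eb1. CTNGCAAC was chosen after the sequences were read. It occurs in 2.84% of 32851 such windows, CCAAT in 33.8% and both together in 0.992%, searched on both strands. A wider X box core, CCTNGNNAC, had no match in either window and occurs in 13.5% of all. These are letter matches only, and the arrays measured no binding.

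Igk-C encodes the constant part shared by all kappa light chains of antibodies, and its arrays were the furthest apart of the 8 genes. Its probe read 49.1 and 48.1 with epoxomicin, 241.6 and 377.7 with E9, and 199.1 and 229.0 with DMSO. The 3 groups did not overlap: E9 was highest, DMSO next, and both epoxomicin arrays were lowest. Subtracting the background mode left 17.9 with epoxomicin, 279 with E9 and 183 with DMSO, so the epoxomicin signal was 0.0976 of that with DMSO. The log2 difference of epoxomicin from DMSO was -1.69 ± 0.16 (SE), with 0 of the 13524 tested genes lower. The genes were named on this comparison, so nothing is read from that rank.

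Epoxomicin also lay far under E9 for Igk-C (log2 difference -2.14 ± 0.16 (SE), limma adjusted p = 1.73e-05). Between E9 and DMSO the difference was 0.46 ± 0.16 (SE) and did not pass (limma adjusted p = 0.0862). The second E9 array carries much of it: without that array the difference was 0.16 and without the other E9 array 0.75 (limma adjusted p = 0.332 and adjusted p = 0.000551). E9 against DMSO and epoxomicin against E9 each share arrays with the comparison on which the genes were named, so their tests are not independent support.

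Cd74, the invariant chain, was lower with epoxomicin than with E9 or DMSO. Its brightest probe read 51.3 and 47.6 with epoxomicin, 96.7 and 88.0 with E9, and 80.5 and 93.5 with DMSO. Both epoxomicin arrays lay under the other 4, and E9 and DMSO overlapped. The log2 difference was -0.58 ± 0.078 (SE) for epoxomicin against DMSO. Epoxomicin against E9 gave -0.65 ± 0.078 (SE, limma adjusted p = 0.000441). For E9 against DMSO it was 0.068 ± 0.078 (SE, limma adjusted p = 0.67). A further Cd74 probe read 53.3 and 55.9 with epoxomicin, 82.7 and 74.0 with E9, and 76.6 and 79.4 with DMSO, the same order of epoxomicin under the other arrays. The remaining Cd74 probe was above the limit on 1 array only.

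H2-Aa, the alpha chain of the class II molecule I-A, had the same arrangement at a dimmer level. It read 30.9 and 28.7 with epoxomicin, 43.2 and 54.2 with E9, and 52.9 and 45.7 with DMSO. Neither epoxomicin array was above the detection limit, all E9 and DMSO arrays were, and E9 and DMSO overlapped. H2-Aa was therefore at least 1.24-fold lower with epoxomicin than with DMSO, and at least 1.23-fold lower than with E9 (limma adjusted p = 0.0108). These bounds set the dim group at the lowest intensity above the limit, on the background-corrected scale with its offset. The call against E9 was lost when 1 epoxomicin array was left out, at limma adjusted p = 0.0599 without the first and adjusted p = 0.094 without the second.

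H2-Ab1, which encodes the beta chain that pairs with H2-Aa, was lower with both compounds. Its brightest probe read 78.9 and 61.1 with epoxomicin, 57.1 and 55.5 with E9, and 125.0 and 155.2 with DMSO. The DMSO arrays stood above the other 4, and E9 was lowest with no overlap. H2-Ab1 fell with E9 (log2 difference -1.01 ± 0.11 (SE), limma adjusted p = 0.000181), and with epoxomicin the difference from DMSO was -0.79 ± 0.11 (SE). Epoxomicin against E9 did not pass (0.22 ± 0.11 (SE), limma adjusted p = 0.271).

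The 3 H2-Ab1 probes disagree in size. The second read 45.0 and 38.7 with epoxomicin, 44.3 and 39.6 with E9, and 57.2 and 58.2 with DMSO, again with DMSO above the rest. The third read 41.1 and 40.6 with epoxomicin, 47.3 and 41.7 with E9, and 46.5 and 47.9 with DMSO, where E9 and DMSO overlap. With the mean of all kept probes in place of the brightest, the E9 difference was -0.46 and the epoxomicin difference -0.41.

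H2-Eb1 encodes the beta chain of I-E, a molecule that C57BL/6 mice lack at the surface because its alpha chain gene H2-Ea is defective. H2-Eb1 read 33.6 and 37.6 with epoxomicin, 36.4 and 38.8 with E9, and 35.8 and 37.9 with DMSO. All groups overlapped close to the limit, and no log2 difference exceeded its SE (0.067). At this signal a change could not be detected.

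Cd79b, the immunoglobulin beta chain of the B cell receptor complex, followed the arrangement of H2-Ab1. Its brightest probe read 77.7 and 72.5 with epoxomicin, 72.0 and 57.8 with E9, and 115.5 and 117.3 with DMSO. The further Cd79b probe read 50.8 and 49.5 with epoxomicin, 43.7 and 41.6 with E9, and 77.4 and 81.2 with DMSO. On both probes DMSO was highest, epoxomicin next and E9 lowest, with no overlap. Cd79b fell with E9 (log2 difference -0.65 ± 0.082 (SE), limma adjusted p = 0.000554), and with epoxomicin it differed from DMSO by -0.50 ± 0.082 (SE). Epoxomicin and E9 differed by 0.16 ± 0.082 (SE, limma adjusted p = 0.303).

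Ms4a1 was at the detection limit. It read 33.5 and 32.6 with epoxomicin, 35.7 and 34.0 with E9, and 34.7 and 34.8 with DMSO, so 3 of 6 arrays were above the limit and no fold is given. Fcmr was above the limit on all arrays, with 53.6 and 53.2 with epoxomicin, 53.3 and 51.7 with E9, and 56.5 and 56.1 with DMSO. Both compounds lay under DMSO with no overlap, by little. Fcmr with E9 differed from DMSO by -0.069 ± 0.061 (SE, limma adjusted p = 0.567).

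**Figure D1:**
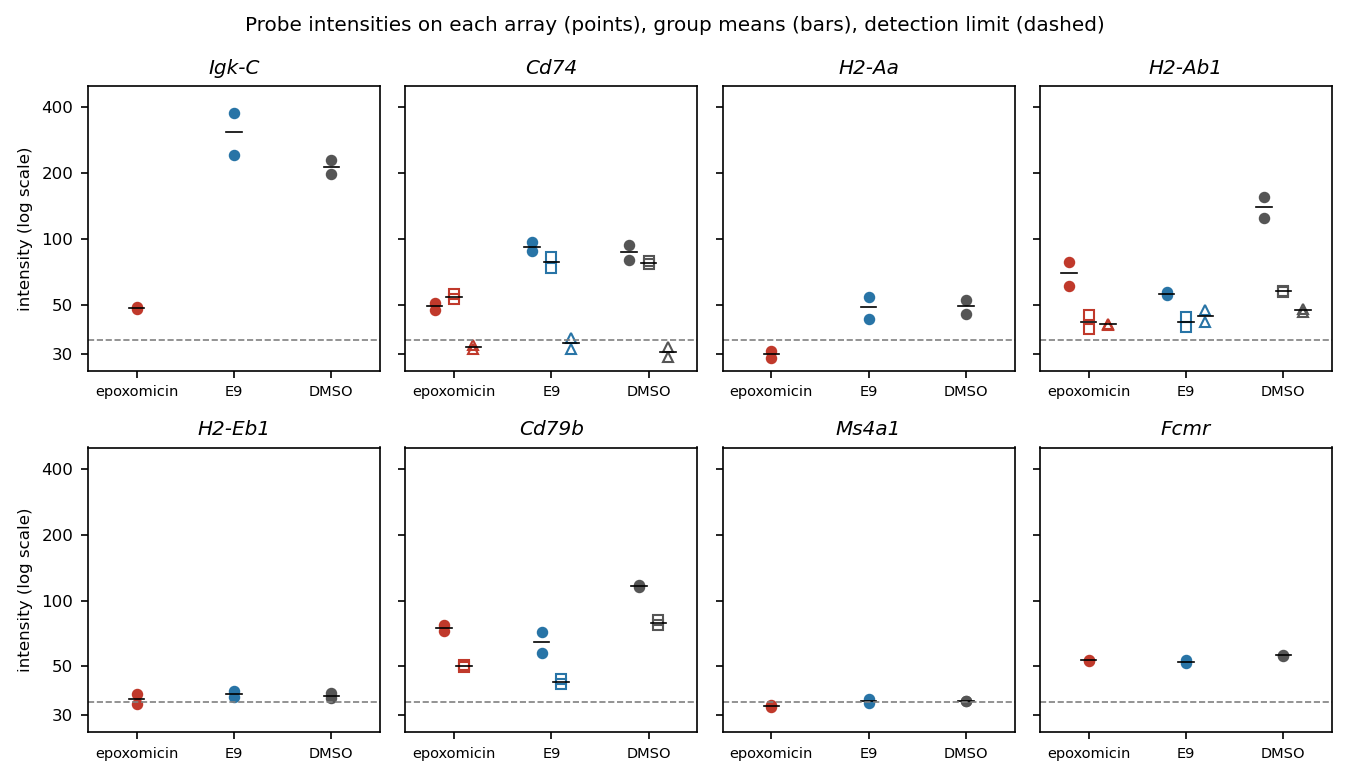
Deposited intensity (log axis) of every probe of the 8 measured genes on each array, by group; filled circles are the brightest probe of a gene, open squares and triangles its further probes, bars group means of 2 arrays and the dashed line the detection limit of 34.5. By the brightest probe, epoxomicin arrays lie under E9 and DMSO arrays for Igk-C, Cd74 and H2-Aa, and DMSO arrays lie above both compounds for H2-Ab1 and Cd79b; the dimmest Cd74 and H2-Ab1 probes do not separate all groups.

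Among the 8 measured genes, the epoxomicin and DMSO arrays did not overlap in 7, all lower with epoxomicin, where 20.3% of all tested genes were lower without overlap. Since this comparison was used to name the genes, nothing is read from that count. The median log2 difference was -0.47, beside 0.0021 over all genes. For E9 against DMSO, 2 of 8 fell and 0 rose, with 7.61% of all genes falling. Their arrays did not overlap in 1 gene that was higher with E9 (Igk-C) and 3 that were lower (H2-Ab1, Cd79b and Fcmr), where 24.7% and 26.7% of all genes lay so. The median was -0.0058, and so was that of all genes at this precision. For epoxomicin against E9, 3 of 8 were lower (Igk-C, Cd74 and H2-Aa) and 0 higher, with 6.62% of all genes lower and 6.0% higher. Arrays without overlap put 4 of 8 lower with epoxomicin and 2 higher, where 23.0% and 27.0% of all genes lay so. Its median was -0.045, beside 0.008 over all genes. Each of these 2 comparisons shares arrays with the one on which the genes were named, so nothing is read from their counts either.

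**Figure D2:**
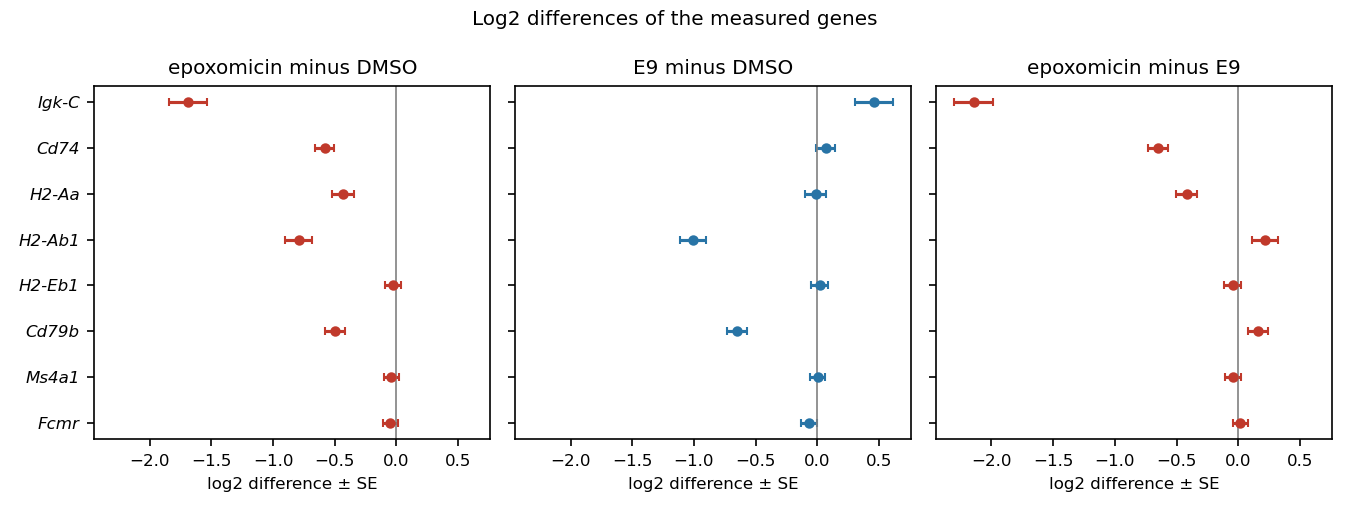
Log2 differences with SE (horizontal axis) of the 8 genes for epoxomicin minus DMSO, E9 minus DMSO and epoxomicin minus E9, from 1 model of 6 arrays. Igk-C, Cd74 and H2-Aa lie left of 0 in the first and last comparison, and H2-Ab1 (-1.01) and Cd79b (-0.65) lie left of 0 in the middle one. The H2-Aa values of the first and last comparison are set against epoxomicin arrays not above the limit.

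Other immunoglobulin probes were read beside Igk-C. The 35 immunoglobulin and J chain probes included 29 for variable genes, of which 2 were above the limit on both epoxomicin arrays, 7 on both E9 arrays and 5 on both DMSO arrays. The median of all intensities (34.2) lies close to the limit (34.5), so nothing is read from these counts. Igl-V1, a lambda light chain variable gene, read 35.2 and 31.3 with epoxomicin, 60.6 and 94.3 with E9, and 55.6 and 107.4 with DMSO. Both epoxomicin arrays lay under the other 4, the replicates of E9 and of DMSO were far apart, and E9 and DMSO overlapped. Igl-V1 was lower with epoxomicin than with E9 (log2 difference -0.79 ± 0.21 (SE), limma adjusted p = 0.0364). Against DMSO the difference of -0.82 ± 0.21 (SE) did not pass (limma adjusted p = 0.124).

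Igkv1-110, a kappa variable gene, had readings of 33.8 and 34.5 with epoxomicin, 43.1 and 52.4 with E9, and 51.8 and 47.0 with DMSO. Epoxomicin again lay under the other 4 arrays, at or under the limit, and Igkv1-110 was at least 1.22-fold lower there than with E9 (limma adjusted p = 0.0359). Igkv9-124, a further kappa variable gene, was also under the limit on both epoxomicin arrays, and at least 1.06-fold lower there than with E9 (limma adjusted p = 0.0463). A further Igkv1-110 probe, with 39.7 and 34.9 under epoxomicin, 39.8 and 43.9 under E9, and 49.3 and 38.2 under DMSO, was lower with epoxomicin than with E9 without overlap, while DMSO overlapped both. Near-identical variable genes can share a probe, so these readings may not be specific to the named gene.

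The heavy chain gene Igh-6, an older name of the IgM constant region, did not separate epoxomicin from DMSO as Igk-C did. Its brightest probe read 598.9 and 776.7 with epoxomicin, 891.2 and 887.2 with E9, and 652.5 and 756.2 with DMSO. Epoxomicin and DMSO overlapped, and E9 lay above both without overlap. The E9 difference from DMSO of 0.33 ± 0.11 (SE) did not pass (limma adjusted p = 0.0895). Nor did epoxomicin against E9 (-0.37 ± 0.11 (SE), limma adjusted p = 0.0667). A further Igh-6 probe had the same arrangement, with 560.0 and 598.2 under epoxomicin, 685.5 and 719.8 under E9, and 564.8 and 609.0 under DMSO. The plasma cell genes Jchain (32.5 to 36.7), Sdc1 (29.2 to 38.3) and Mzb1 (32.9 to 39.9) stayed around the limit. Xbp1, a secretory factor of plasma cells that T cells also make, rose with E9 (1.11) and Irf4, made by activated T cells too, fell (-0.48; limma adjusted p = 1.03e-05 and adjusted p = 0.00197). Of 15 tested genes of the immunoglobulin and plasma cell list other than Igk-C, these were the 1 that rose and the 1 that fell with E9. With epoxomicin against DMSO, 0 of these 15 passed, where 1.26% of all genes did (limma adjusted p under 0.05). The median of the 15 was -0.041 for epoxomicin and -0.013 for E9.

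**Figure D3:**
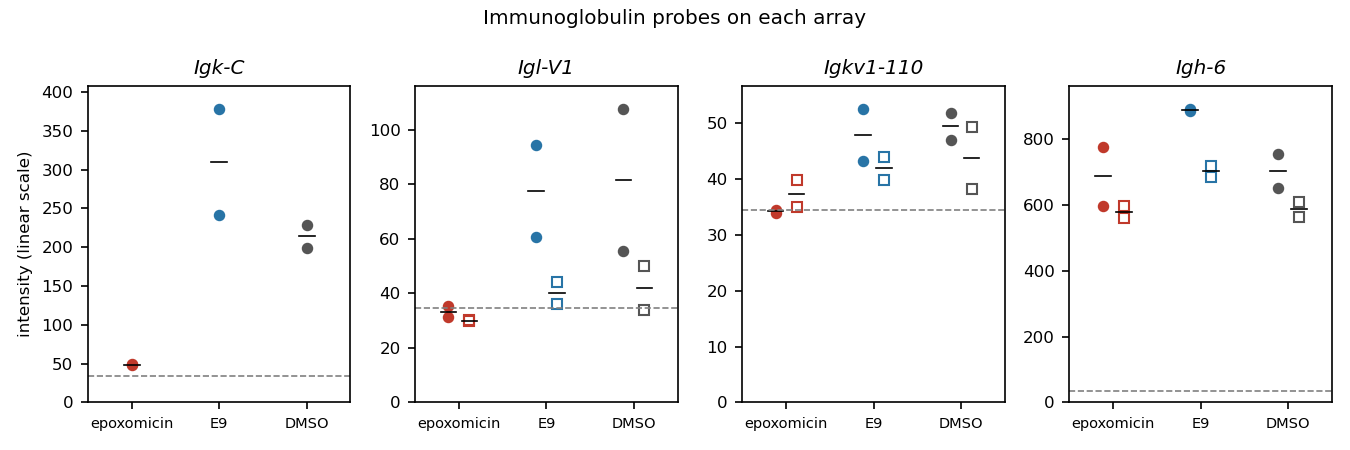
Deposited intensity (linear axis from 0, scaled per panel) of immunoglobulin probes on each array; filled circles are the brightest probe, open squares a further probe, bars group means of 2 arrays, and the dashed line the detection limit. Epoxomicin arrays lie lowest for Igk-C, Igl-V1 and the brighter Igkv1-110 probe, while Igh-6 is bright on every array.

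Of the MHC class II pathway, 24 genes of the list were on the array and 19 were tested, 15 of them beyond H2-Aa, H2-Ab1, H2-Eb1 and Cd74. With epoxomicin 0 of these 15 passed against DMSO, where 1.26% of all genes did. With E9, 3 of 15 rose and 0 fell, where 7.52% of all genes rose and 7.61% fell. H2-DMa, a chain of the peptide-editing molecule H2-DM, read 421.5 and 368.7 with epoxomicin, 1063.0 and 1072.5 with E9, and 375.2 and 338.2 with DMSO. The E9 arrays stood apart from the other 4, and H2-DMa rose with E9 (log2 difference 1.52 ± 0.081 (SE), limma adjusted p = 2.66e-06). H2-Oa, a chain of the H2-DM inhibitor H2-DO, rose by 0.67, and Ctss, the cathepsin that trims the invariant chain, by 0.91 (limma adjusted p = 0.000161 and adjusted p = 0.000539). All 3 were also lower with epoxomicin than with E9, as 6.62% of all genes were. The median of the 15 was -0.017 for epoxomicin and -0.031 for E9 against DMSO, beside 0.0021 and -0.0058 over all genes.

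The partner chain genes H2-DMb1 (0.19), H2-DMb2 (0.23) and H2-Ob (under the limit on both DMSO arrays) did not pass with E9 (limma adjusted p = 0.132, adjusted p = 0.0531 and adjusted p = 0.126). Ifi30, a lysosomal thiol reductase of antigen processing, read 103.0 and 111.2 with epoxomicin, 132.0 and 109.5 with E9, and 160.8 and 142.7 with DMSO. DMSO lay above the other arrays, with differences of -0.42 for epoxomicin and -0.28 for E9 that did not pass (limma adjusted p = 0.0675 and adjusted p = 0.0671). Ciita was above the limit on 0 of 6 arrays (26.5 to 33.3), and the regulator Rfx5 was not tested. The NF-Y subunits Nfya, Nfyb and Nfyc and the RFX subunits Rfxap and Rfxank did not pass in any comparison, Nfyc reading 1357 to 1548.

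**Figure D4:**
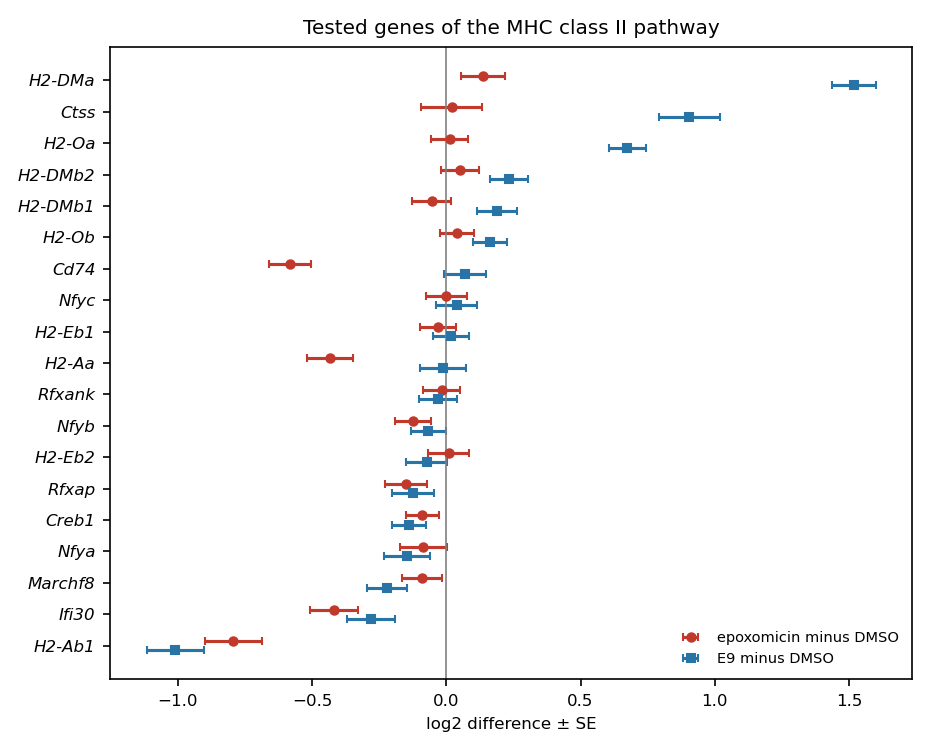
Log2 differences with SE (horizontal axis) of the 19 tested genes of the MHC class II pathway for epoxomicin minus DMSO (circles) and E9 minus DMSO (squares), ordered by the E9 value. Both comparisons use the same DMSO arrays; H2-DMa (1.52), Ctss (0.91) and H2-Oa (0.67) lie to the right with E9, and H2-Ab1 to the left in both.

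Defining markers of the cells that carry these transcripts were mostly near background. For B cells, 8 further defining markers were on the array: Cd22, Cr2, Fcer2a, Pax5, Ebf1, Blk, Blnk and Vpreb3. They read 28.7 to 42.8 with epoxomicin, 26.7 to 35.8 with E9 and 25.6 to 37.5 with DMSO. None was above the limit on all 6 arrays, and 7 of 8 were above it on at most 2. Their summed signal over the background mode was 16.4 and 15.7 with epoxomicin, 7.12 and 8.62 with E9, and 5.22 and 12.1 with DMSO. Both epoxomicin arrays lay above the other arrays in this sum. Most of these readings were under the limit. As the median of all intensities lies close to the limit, nothing is read from how many B cell readings were above it. The part of other cells in the differences of Igk-C, Cd74 and H2-Aa was not tested.

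Over all tested genes, 1.26% passed with epoxomicin, and 7.52% rose and 7.61% fell with E9, against which the counts of the lists that follow stand. Among B cell surface genes, Cd81, a tetraspanin that T cells also make, read 186.5 and 181.0 with epoxomicin, 120.1 and 95.3 with E9, and 340.3 and 345.7 with DMSO. Cd81 fell with both compounds (-0.82 and -1.47, limma adjusted p = 0.00423 and adjusted p = 5.19e-06), in the order that H2-Ab1 and Cd79b showed. Of the 12 tested genes of that list beyond Cd79b, Ms4a1 and Fcmr, it was the 1 that fell with epoxomicin, and the list's median difference was 0.011 for epoxomicin and -0.063 for E9. With E9, Tnfrsf13b (-0.40) and Cd24a (at least 1.1-fold lower, under the limit on both E9 arrays) fell as well, and Cd72 (0.49) and Cd37 (0.40) rose, the last adjusted p being 0.00356 (limma). Of 10 genes of B cell signalling and transcription, Pou2af1, a coactivator of octamer factors, rose with epoxomicin (0.51, limma adjusted p = 0.0277). With E9, Pou2af1 (-0.71), the octamer factor Pou2f2 (-1.05) and the repressor Bach2 (-0.69) fell, limma adjusted p = 0.000309 to 0.000499. The list's median was 0.014 for epoxomicin and -0.091 for E9. Activated T cells also make several of these factors.

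Among cells that carry class II but no immunoglobulin, phagocyte markers and several dendritic cell markers were dim too. The macrophage and monocyte markers Csf1r, Adgre1, Lyz2, Cd14 and Fcgr1 read 28.3 to 40.1 with epoxomicin, 30.3 to 41.9 with E9 and 29.7 to 37.7 with DMSO. Their summed signal over background was 1.35 and 11.6 with epoxomicin, 25.4 and 16.7 with E9, and 13.7 and 19.3 with DMSO. Both epoxomicin arrays lay under the other arrays in this sum. Of 10 readings per group, 2 with epoxomicin, 5 with E9 and 5 with DMSO were above the limit. As the median of all intensities lies close to the limit, nothing is read from these counts. Over the whole list of 17 genes the summed signal was 36.9 and 47.6 with epoxomicin, 94.1 and 69.0 with E9, and 40.6 and 56.3 with DMSO, where epoxomicin and DMSO overlap. Mpeg1, the phagocyte pore protein, read 31.5 and 32.5 with epoxomicin, 43.7 and 43.8 with E9, and 39.0 and 37.2 with DMSO, and was at least 1.15-fold lower with epoxomicin, under the limit on both arrays, than with E9 (limma adjusted p = 0.0196). Of 8 tested genes of that list, 0 passed against DMSO with either compound, and their median was -0.032 for epoxomicin and 0.092 for E9.

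The dendritic cell markers Flt3, Zbtb46, Clec9a and Cd209a read 25.8 to 39.9 over all arrays, while Siglech, a plasmacytoid marker, read 67.4 to 88.3 without separating the groups. Other dendritic cell genes were above the limit on all arrays. Cd86 read 40.2 and 39.0 with epoxomicin, 50.5 and 60.0 with E9, and 40.9 and 46.2 with DMSO. Cd86 was lower with epoxomicin than with E9 (-0.31, limma adjusted p = 0.0284). Of the 10 tested it was the 1 lower there, and 2 were higher, where 6.62% and 6.0% of all genes were. Tcf4 read 60.5 and 61.8 with epoxomicin, under the other arrays (71.1 to 84.3), and did not pass. For Bst2 (75.6 to 152.9) epoxomicin and DMSO overlapped. Of 10 tested dendritic cell genes, 0 passed with epoxomicin against DMSO, and Cd83, Ccr7 and Batf3, which activated T cells make as well, fell with E9 (medians of the list -0.083 and -0.044). The neutrophil gene S100a8 was above the limit on the E9 arrays alone, at 37.7 and 47.2, against 28.2 and 26.3 with DMSO (at least 1.13-fold higher, limma adjusted p = 0.0119). It was kept for testing only through those E9 arrays, so nothing is read from this call. The neutrophil genes S100a9, Ngp and Camp were above the limit on 0 arrays. Beside 7.52% of all genes that rose and 7.61% that fell with E9, and 1.26% that passed with epoxomicin, the other lists counted as follows. Of 4 tested neutrophil genes S100a8, kept through its E9 arrays, was the 1 that passed with E9 (list medians -0.012 for epoxomicin and 0.0025 for E9). Of 5 erythroid and platelet genes 0 passed (0.012 and -0.050). Of 5 CD4 and regulatory T cell genes, 2 fell with E9, Foxp3 and Gata3 (0.0047 for epoxomicin and -0.13 for E9). The brightest Foxp3 probe was well above the limit on all arrays, at 246.8 to 317.0, while the brightest Cd4 probe read 32.2 to 37.0. Of 5 NK cell genes 2 rose with E9, Klrd1 and Eomes, both also made by CD8 T cells (0.32 and -0.027). Of 11 CD8 T cell genes 1 rose with epoxomicin, Zap70, and 8 rose with E9 (0.23 and 0.55). Whether these values share a source with Igk-C, Cd74 or H2-Aa was not tested.

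Genes most like each one over the 6 arrays were taken by the root mean square difference of log2 values, each gene centred on its own mean. For H2-Aa these were Eif4ebp1 (0.038), Pkib (0.057) and Igkv1-110 (0.062), where H2-Aa itself varied by 0.22 about its mean. For Cd74, which varied by 0.30, they were Ndrg1 and Parp14 (both 0.077) and Prdx4 (0.089). For H2-Ab1, which varied by 0.45, they were Ndrg2 (0.15), Tubb2b (0.15) and Tlcd3a (0.16). For Cd79b, which varied by 0.29, they were Lig1 (0.057), Hilpda (0.057) and H4c18 (0.063). Igk-C varied by 0.94, and its nearest genes Anxa2 (0.40), Socs2 (0.46) and Chac1 (0.47) were all far from it. H2-Eb1, Ms4a1 and Fcmr varied by under 0.04, so their nearest genes are simply others that stayed level. With 6 arrays in 3 groups many genes can come close by their group means alone.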

How the data were processed

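Total RNA of 6 samples was labelled with streptavidin-Cy3 and read on Illumina bead arrays, per the labels' protocols. The authors deposited intensity values (linear, 22 to 18026.1, median 34.2). All arrays hold the same set of values in a different order, as quantile normalization leaves them; software and background handling are not given in the sources used here. A non-normalized table has 6 value columns whose names match no sample and was not used. Background was the mode of the intensities (30.7), with SD 2.31 of the values below it, giving a one-sided limit (probability 0.05) of 34.5. Intensities were corrected with normexp (offset 50, which shrinks differences of dim genes) and log2-transformed. Of 45281 probes 35784 carried 1 symbol, 0 several and 9497 none; 31257 were matched to RefSeq symbols and 4527 kept the annotation's. Probes above the limit on 2 arrays or more were kept (20349), and the brightest per gene gave 13524 genes. A gene not above the limit on either array of a group was kept through its other groups, so its calls against them are no support. limma 3.58.1 (R 4.3.3) fitted 1 model of 3 groups with eBayes and Benjamini-Hochberg adjustment within each comparison, calling adjusted p under 0.05. Python 3.11.15 and matplotlib 3.10.9 made summaries and figures. The procedure was tested on simulated data. The number of arrays limits the precision.

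The genes, lists and naming rule were chosen with earlier results of these data known. The rule covered all measured genes of the opening, up to 6 passing genes per list and comparison, the 3 brightest of a list, and the 3 nearest genes by profile. Not every gene it covered was described. Cxcr5 and Nkg7, which passed for epoxomicin against E9, and the bright Irf8 are among those left out. Igl-V1 and the probes set beside Igk-C, the defining markers, Tcf4, Bst2 and the genes given as not passing were also picked after their values were seen. Alternatives were a replicate block, compared groups alone, no background correction, an offset of 16, no filter, a stricter filter (4 arrays), the mean of all probes, trend with robust eBayes and leaving out each array. Lists for neutrophils, erythroid cells, CD4 T cells, NK cells and CD8 T cells served only as marker checks.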

Additional observations from a re-analysis of the deposited data

How the results depend on the processing

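The replicate numbers showed no pairing common to the 3 groups. Deviations of same-numbered arrays correlated with r = 0.214 between epoxomicin and DMSO, -0.317 between E9 and DMSO and -0.203 between epoxomicin and E9. These values do not settle whether the samples were paired in another way. With the replicate block, 91 genes passed for epoxomicin against DMSO in place of 170, and with the E9 numbers crossed, chosen after seeing the data, 420. Leaving out 1 array gave 1 to 29 genes there (a lone array is then assumed to vary like the rest), 1228 to 1878 in place of 2046 for E9 against DMSO, and 938 to 1608 in place of 1706 for epoxomicin against E9. The median difference of the 8 genes for epoxomicin against DMSO (-0.465) was -0.678 without background correction, -0.812 with an offset of 16 and -0.422 with the mean of all kept probes. For epoxomicin against E9 (-0.0452) it was -0.103 with an offset of 16. Over 12 alternatives the sign held for Igk-C (-2.35 to -1.6), Cd74, H2-Aa, H2-Ab1 and Cd79b in epoxomicin against DMSO. The alternatives reuse the arrays on which the genes were named, so a held sign there is no support. For E9 against DMSO, the sign of H2-Ab1 (-1.45 to -0.456) and Cd79b (-0.945 to -0.541) held in all 12. The DMSO arrays here are those on which the genes were named, so this held sign is no support either. Igk-C passed for E9 against DMSO without background correction (0.501, limma adjusted p = 0.0415) and without the first E9 array. Values near 0 turned sign as single arrays were left out. For E9 against DMSO, H2-Aa ran from -0.121 to 0.093 (and was 0.0555 without the first DMSO array), H2-Eb1 from -0.0102 to 0.0445 (-0.00709 without the first DMSO array), Cd74 from -0.015 to 0.152 and Ms4a1 from -0.018 to 0.0225. For epoxomicin against E9, H2-Eb1 ran from -0.094 to 0.00026. The cause was not tested. H2-Eb1 and Ms4a1 lie so near background that only large changes could be seen.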

Other observations

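The second E9 array, which had the highest Igk-C reading (377.7), also stood apart for single kappa variable genes. Igkv10-95 read 54.6 on that array and 27.4 to 31.6 on the other 5. Igkv6-23 read 46.1 there and 32.0 to 35.9 on the others. Both were noticed after the values were seen, and no test was made on 1 array.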
